A study of Homo sapiens with 18 samples.

Results

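The comparison described here sets 3 arrays of L428-PAX5+MAT against 3 arrays of L428-PAX5+M, which are 6 of the 18 arrays of the study, over all 18417 genes with a probe set of a single gene symbol. The arrays were chosen by the cell line and treatment fields of the labels, with no measured value. L428 is a cell line of classical Hodgkin lymphoma, and L428-PAX5 is its derivative in which mifepristone induces PAX5. L428-PAX5+MAT cells had 0.25 nM mifepristone, 3 µM 5-aza-2′-deoxycytidine (5-aza-dC) and 640 nM trichostatin A (TSA) within a treatment of 5 days: mifepristone alone for the first 2 days, 5-aza-dC for the next 3 days, and TSA for the last 24 hours. L428-PAX5+M cells had 0.25 nM mifepristone alone for 5 days. Both groups therefore carried induced PAX5, mifepristone, and HEPES in the medium. The parental pair, 3 arrays of L428+MAT and 3 of L428+M with the same doses but no induced PAX5 and no HEPES, shares no array with the main pair and is set beside it where that shows a difference. Raji and Namalwa, Burkitt lymphoma lines without treatment, entered the shared estimate of the spread and the marker check. For L428-PAX5+MAT the cell line field, which was used, reads L428-PAX5, while the sample titles read L425-PAX5. The sources used here do not state that replicates were grown separately or whether the control cells had solvent, and the p-values therefore rest on differences between arrays that may be technical. Each agent on its own was not analysed here.

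5-aza-dC is a cytidine analogue that is built into new DNA and traps DNA methyltransferases, so that methylation is lost as cells divide. TSA inhibits histone deacetylases, and acetylated histones are a mark of open chromatin. Promoters silenced by methylation in most body cells include those of germ-cell genes and of cancer-testis antigens, and transcripts from repeats opened in this way can reach sensors of nucleic acids and start an interferon response. PAX5 is the transcription factor that commits progenitors to the B lineage, and Hodgkin cells have lost most of the B-cell program although they descend from B cells.

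PAX5 had log2 signals of 12.84, 12.85 and 12.67 on the L428-PAX5+MAT arrays and 12.70, 12.81 and 12.68 on the L428-PAX5+M arrays. The groups overlapped and the difference of 0.06 ± 0.30 (log2 change ± SE, limma adjusted p = 0.92) did not pass. Of the defining markers of Hodgkin lines, 7 of 8 lay above the median signal of 7.18 in both groups, though their array medians were 8.45 to 9.30 in L428-PAX5+MAT and 9.91 to 10.07 in L428-PAX5+M. The markers of B cells were low: 0 of 5 lay above it in either L428-PAX5 group, and 5 of 5 did in the Burkitt lines. Of markers of other cells, 0 of 6 for T and NK cells, 1 of 6 for myeloid cells (CD68) and 1 of 5 for fibroblasts (COL1A1) lay above it in both groups, and 3 of 5 epithelial markers did in L428-PAX5+MAT, against 2 of 5 in L428-PAX5+M. Replicate arrays correlated with r from 0.9628 to 0.985 within L428-PAX5+MAT and from 0.9856 to 0.9932 within L428-PAX5+M, so the treated arrays varied more. The SEs and p-values rest on 1 spread per gene shared by all 6 groups, and so do not reflect this wider spread. The values of the treated arrays were also spread less widely over genes, with SDs of 2.04, 2.00 and 2.02 log2 units, against 2.19, 2.16 and 2.10 in L428-PAX5+M.

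Of 18417 genes, 6204 (33.7%) passed an adjusted p of 0.05. L428-PAX5+MAT was higher for 2622 (14.2%) and lower for 3582 (19.4%). With the spread taken from the 2 groups alone, 1965 were higher and 2786 lower. At least 2-fold changes that passed numbered 867 higher (4.71%) and 1166 lower (6.33%). Quantile normalization of all arrays turned this split round to 1050 higher and 859 lower (55% higher, against 42.6% for the values as deposited), and brought all passing genes to 3015 higher and 3020 lower. The median change of all genes was -0.04 in either line. The genes at least 2-fold higher had a median log2 signal of 8.37 in L428-PAX5+MAT, against 6.74 in L428-PAX5+M. For those at least 2-fold lower, the medians were 8.11 in L428-PAX5+MAT and 9.51 in L428-PAX5+M. In L428-PAX5+M, 520 of the 867 risers lay below the median signal of 7.18 and 347 did not, where 9133 of all 18417 genes lay below it. Of the 1166 that fell, 1126 did not lie below it. Since the genes were chosen on these arrays, the choice itself lowers the L428-PAX5+M values of risers and raises those of genes that fell.

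The 3 pairs of arrays with the same replicate number did not move equally far. The 867 genes at least 2-fold higher had median changes of 1.34, 1.73 and 1.19 in pairs 1, 2 and 3, and the 1166 lower ones -1.3, -1.61 and -1.0. The members were chosen on these arrays, so these medians describe the spread only. Without L428-PAX5+MAT replicate 2, 736 genes passed at least 2-fold higher and 834 lower. Without L428-PAX5+MAT replicate 3, the numbers were 1038 and 1430. Leaving out replicate 2 of all 4 L428 groups, an alternative added after the data were seen, reduced the passing genes to 1582 higher and 2248 lower.

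The plot of change by signal level shows where the split arises. In the 4 brightest of 10 equal classes of genes by mean signal, the median change in L428-PAX5 lay between -0.19 and -0.31. After quantile normalization it lay between -0.05 and -0.06 in the same classes. In the parental line it lay between -0.01 and -0.03 there. Small falls of bright genes in L428-PAX5+MAT therefore depend on the scaling, and each list of genes below is given with its count after quantile normalization where that differs by more than 1.5 times.

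**Figure D1:**
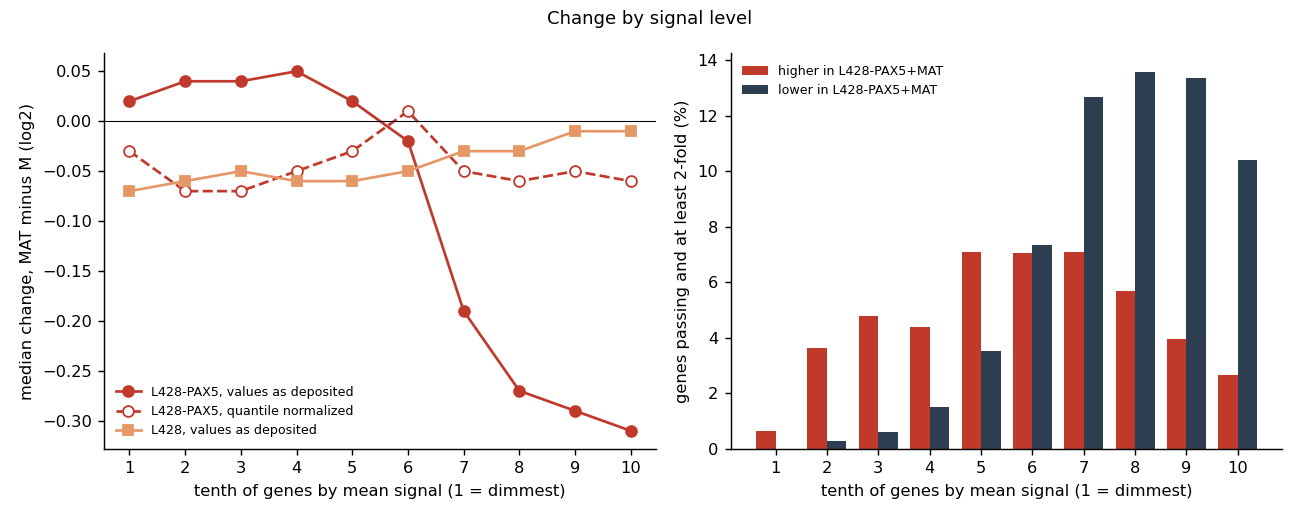
Median log2 change with 5-aza-dC and TSA (left) and share of genes passing and at least 2-fold changed (right) in 10 equal classes of the genes by mean signal in L428-PAX5+MAT and L428-PAX5+M. As deposited, the L428-PAX5 medians drop to -0.31 in the brightest class, the quantile-normalized ones stay near 0, and genes lower by at least 2-fold peak at 13.58% in the eighth class.

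The largest rise was in UTS2B, which encodes a peptide ligand of the urotensin receptor. Its log2 signals were 10.05, 10.99 and 10.20 in L428-PAX5+MAT and 4.08, 3.80 and 4.16 in L428-PAX5+M. Every treated array stood far above every L428-PAX5+M array, a change of 6.40 ± 0.25 or 84.5-fold (limma adjusted p = 8.7e-12). RFPL4A, a RING-finger gene with close copies that may share its probes, had 11.64, 12.17 and 10.63 in L428-PAX5+MAT, against 6.03, 5.49 and 5.52 in L428-PAX5+M. GPR50, an orphan receptor related to the melatonin receptors, had 10.59, 11.65 and 10.28 in L428-PAX5+MAT and 5.56, 5.29 and 5.23 in L428-PAX5+M. Their changes were 5.80 ± 0.32 and 5.48 ± 0.23. In L428-PAX5+M all 3 lay below the median signal. Among the other 12 largest rises were TENM1, a teneurin of neuronal contacts (4.91 ± 0.20), ENPP2, the enzyme autotaxin that makes lysophosphatidic acid (4.68 ± 0.23), DNAH12, a heavy chain of ciliary dynein (4.42 ± 0.17), ATP1B2, a subunit of the sodium pump (4.36 ± 0.28), TCN2, the carrier of vitamin B12 in plasma (4.33 ± 0.20), and CXCL11, a chemokine for T cells (4.33 ± 0.25). KRTAP19-8, a keratin-associated protein of hair, rose by 4.76 ± 0.24. The plot of the largest changes shows that the same genes were higher in L428+MAT than in L428+M too, with no overlap of arrays, and that in all but TKTL1 and ATP1B2 every L428+MAT array lay below every L428-PAX5+MAT array.

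**Figure D2:**
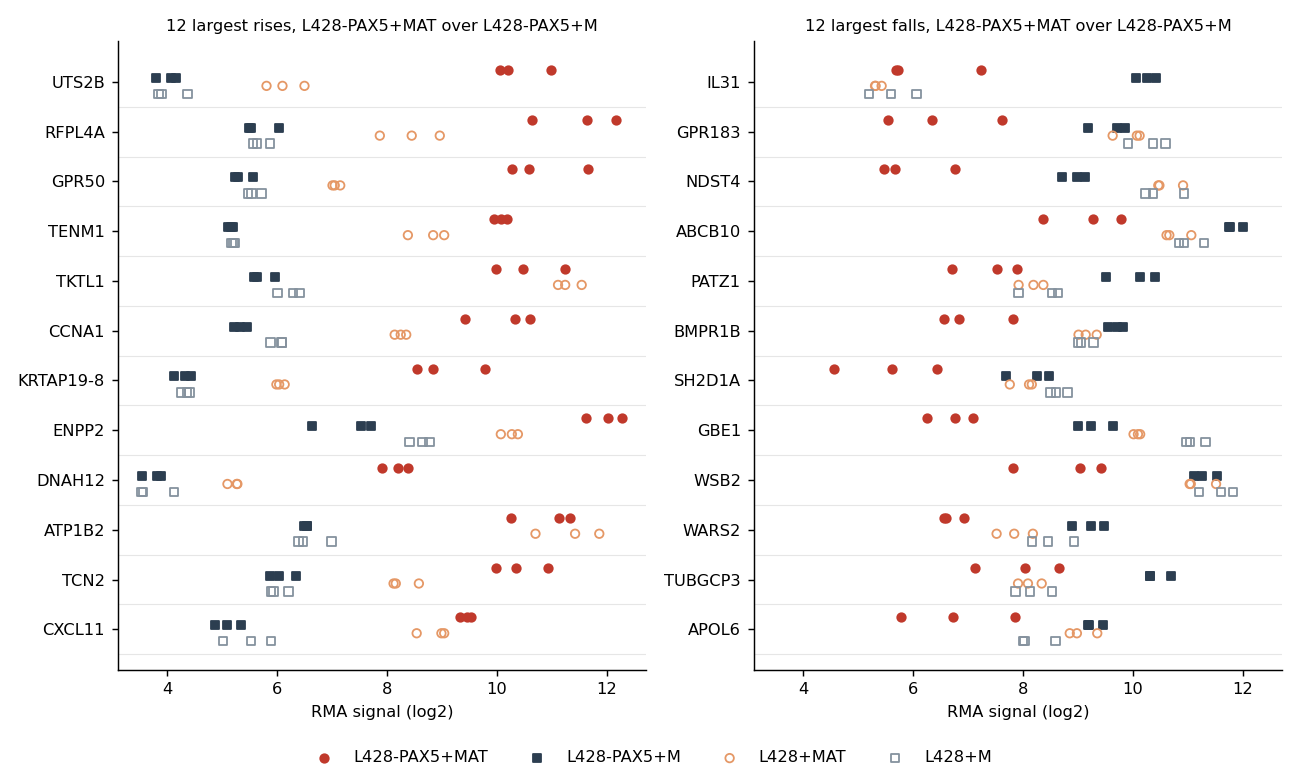
Log2 RMA signal of every array of L428-PAX5+MAT, L428-PAX5+M, L428+MAT and L428+M for the 12 genes with the largest passing rises (left) and falls (right) in L428-PAX5. The 3 L428-PAX5+MAT points lie clear of the L428-PAX5+M points in every gene, which the choice of genes required; IL31 is near 10 only in L428-PAX5+M.

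The largest fall was in IL31, a cytokine of activated T cells. It had 5.70, 5.72 and 7.23 in L428-PAX5+MAT, against 10.41, 10.05 and 10.25 in L428-PAX5+M, a change of -4.02 ± 0.29 (limma adjusted p = 1.9e-08). In the parental line it was low throughout, with 5.32, 5.43 and 5.31 in L428+MAT and 6.06, 5.20 and 5.60 in L428+M. GPR183, the oxysterol receptor that positions B cells in lymphoid follicles, had 6.35, 5.54 and 7.62 in L428-PAX5+MAT and 9.71, 9.18 and 9.86 in L428-PAX5+M. NDST4, an enzyme of heparan sulfate synthesis, had 5.48, 5.68 and 6.77 in L428-PAX5+MAT and 8.98, 8.71 and 9.13 in L428-PAX5+M. In each of the 3 genes replicate 3 of L428-PAX5+MAT was the least reduced array. Further down came ABCB10, a mitochondrial transporter (-2.69 ± 0.25), PATZ1, a zinc finger transcription factor (-2.63 ± 0.26), BMPR1B, a receptor for bone morphogenetic proteins (-2.61 ± 0.22), SH2D1A, the adaptor SAP of SLAM receptors (-2.60 ± 0.33), GBE1, the glycogen branching enzyme (-2.59 ± 0.18), WARS2, a mitochondrial tRNA synthetase (-2.50 ± 0.21), and TUBGCP3, a subunit of the gamma-tubulin complex (-2.49 ± 0.26). Of these, GBE1 fell in L428 too, by 1.03 (adjusted p = 0.0015).

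Of 39 genes of meiosis and germ cells measured, 21 were higher in L428-PAX5+MAT, 1 was lower and 17 did not pass, with a median change of 0.53, against -0.04 over all genes. Of all genes, 14.2% were higher. TKTL1, a transketolase-like gene of the testis, had 11.23, 10.48 and 9.99 in L428-PAX5+MAT and 5.58, 5.63 and 5.97 in L428-PAX5+M (4.84 ± 0.22, adjusted p = 4.7e-11). CCNA1, the cyclin needed for male meiosis in mice, had 10.33, 10.60 and 9.42 in L428-PAX5+MAT, against 5.22, 5.45 and 5.33 in L428-PAX5+M. HSPA2, the heat shock protein of spermatocytes, had 11.79, 12.04 and 10.35 in L428-PAX5+MAT and 8.21, 7.90 and 7.07 in L428-PAX5+M. Groups stayed apart in all 3 genes, which the choice of genes required. BRDT, the testis bromodomain protein (3.60), MAEL, a factor of the piRNA pathway (3.20), TDRD12, a Tudor protein of that pathway (3.04), and DAZL, an RNA-binding protein of germ cells (2.76), were named after their values were seen, as were those that follow. SYCP3 (1.75), SYCP2 (1.25) and STAG3 (0.75), parts of the meiotic chromosome axis, also rose. The list was not raised as a whole: SPO11, the enzyme of meiotic DNA breaks, changed by -0.07, SYCP1 by 0.12 and LDHC by 0.12, none of which passed, and DMC1, the meiotic recombinase, fell by 0.67 (adjusted p = 0.013). The number lower was 3 with replicate number as a block, 4 without L428-PAX5+MAT replicate 3 and 0 without L428-PAX5+MAT replicate 1 or 2, and, of the 4 groups, 0 without replicate 1 or 2 and 2 without replicate 3. Most members lay near the floor, with list medians from 5.63 to 5.90 on the L428-PAX5+MAT arrays and 4.65 to 4.99 on the L428-PAX5+M arrays. A filter on dim genes kept those with any of the 6 group means above the median signal, and 10 members were then higher. A member can meet this filter through the treated group in which it rose, so the count is a description only. In the parental line 19 of the 39 were higher and 0 lower, with a median of 0.65 over the members, where 4.21% of all genes were higher and 0.635% lower.

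Cancer-testis antigens, proteins made by the testis and by some tumours, gave 8 higher (42.1%) and 0 lower of 19 measured, against 14.2% and 19.4% of all genes. SSX1 had 9.32, 8.95 and 8.95 in L428-PAX5+MAT and 5.08, 5.31 and 4.98 in L428-PAX5+M, a change of 3.95 ± 0.18. SSX3 changed by 3.52 ± 0.22 and, named after its value was seen, MAGEA4 by 1.42. SSX and MAGE genes have near-identical copies whose signals may be shared. The rise of SSX1 was smaller than in the parental line, with a difference of -1.43 (limma adjusted p of the difference = 0.00093), as was that of SSX3, with -1.34 (adjusted p = 0.0068). PRAME and MAGEC2 were also chosen after their values were seen. PRAME, changed by -0.38, and MAGEC2, by -0.08, did not pass. Only 3 of the 8 were called among genes that met the filter on dim genes. The number lower was 1 with the replicate block and without L428-PAX5+M replicate 2 or replicate 3 of the 4 groups.

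Promoter sequences of UTS2B, which had the largest rise, and of the germ-cell genes TKTL1, CCNA1 and MAEL are shown because they differ widely in their number of CG. The windows run from 250 bases before to 50 after the annotated start, from RefSeq's table of GRCh38.p14. They are written 5′ to 3′ on the gene's strand, with each CG in capitals.
UTS2B, chr3:191330477-191330776, minus strand: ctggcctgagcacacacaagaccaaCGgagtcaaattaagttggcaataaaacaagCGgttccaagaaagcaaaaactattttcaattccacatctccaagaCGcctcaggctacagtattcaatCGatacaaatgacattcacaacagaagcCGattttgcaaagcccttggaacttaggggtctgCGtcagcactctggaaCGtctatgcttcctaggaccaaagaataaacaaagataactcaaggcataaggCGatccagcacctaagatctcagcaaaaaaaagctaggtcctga
TKTL1, chrX:154295545-154295844, plus strand: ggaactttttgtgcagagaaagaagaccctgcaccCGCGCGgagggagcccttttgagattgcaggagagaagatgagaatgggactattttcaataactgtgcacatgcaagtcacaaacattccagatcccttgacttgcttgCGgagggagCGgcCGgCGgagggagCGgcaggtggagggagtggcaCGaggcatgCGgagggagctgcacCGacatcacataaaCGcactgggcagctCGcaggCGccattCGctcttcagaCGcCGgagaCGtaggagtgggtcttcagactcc
CCNA1, chr13:36431705-36432004, plus strand: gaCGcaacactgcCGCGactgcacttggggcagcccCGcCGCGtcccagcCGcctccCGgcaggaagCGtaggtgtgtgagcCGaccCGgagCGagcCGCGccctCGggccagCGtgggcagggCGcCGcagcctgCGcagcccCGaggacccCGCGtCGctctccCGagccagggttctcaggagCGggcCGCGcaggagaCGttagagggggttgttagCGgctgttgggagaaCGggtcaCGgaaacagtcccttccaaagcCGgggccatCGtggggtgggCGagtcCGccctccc
MAEL, chr1:166975332-166975631, plus strand: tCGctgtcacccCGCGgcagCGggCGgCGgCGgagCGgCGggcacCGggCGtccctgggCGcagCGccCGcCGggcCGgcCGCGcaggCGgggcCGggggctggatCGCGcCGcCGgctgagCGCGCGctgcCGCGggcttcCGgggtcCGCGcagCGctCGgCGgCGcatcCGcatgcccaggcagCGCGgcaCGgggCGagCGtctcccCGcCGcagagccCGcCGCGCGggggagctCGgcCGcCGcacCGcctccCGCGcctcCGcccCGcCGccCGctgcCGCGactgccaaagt
These windows hold 8 (UTS2B), 18 (TKTL1), 35 (CCNA1) and 60 (MAEL) CG. The 34 of 39 germ-cell genes with a window had a median of 26. A comparison with all genes, or with the genes at least 2-fold higher, is void, since only 14237 of 18417 (77.3%) and 663 of 867 (76.5%) had a window. Methylation itself was not measured.

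KRAB zinc finger genes, which encode repressors of retroelements and lie in large clusters, followed. Of 41 measured, 20 were higher in L428-PAX5+MAT and 1 lower, with a median change of 0.37. These are 48.8% and 2.44%, against 14.2% and 19.4% of all genes. ZNF737 had 9.30, 9.19 and 8.87 in L428-PAX5+MAT and 5.26, 4.74 and 4.74 in L428-PAX5+M (4.21 ± 0.23, adjusted p = 4.8e-10). ZNF90 had 9.32, 9.50 and 8.23 in L428-PAX5+MAT, against 6.04, 5.77 and 6.03 in L428-PAX5+M. ZNF10 rose by 1.66 ± 0.21, and ZNF274 fell by 0.50, a call lost without replicate 1 of the 4 groups (-0.46, adjusted p = 0.055). In L428, 3 of the 41 (7.32%) were higher and 0 lower, against 4.21% and 0.635% of all genes. The test of the difference itself passed for 5 members above and 1 below, among them ZNF90 (2.27, adjusted p = 0.00081), against 5.64% of all genes above and 10.6% below. Members of the family share sequence, so single values are uncertain. The count was sensitive to single arrays: 10 members passed higher without L428-PAX5+M replicate 1, 13 without L428-PAX5+M replicate 2 and 13 without L428-PAX5+MAT replicate 3. With the numbered arrays of all 4 L428 groups left out together it was 11 without number 1 and 9 without number 2. The 1 lower became 2 without L428-PAX5+MAT replicate 3, and 0 without number 1. The count higher was 11 among genes that met the filter on dim genes and 11 with the spread taken from the 2 groups alone.

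Some genes of other tissues rose as well. The counts that follow stand against 14.2% higher and 19.4% lower of all genes. Of 26 neuronal genes, 12 were higher and 2 lower, and 6 were called higher among genes that met the filter on dim genes. The number lower was 1 without L428-PAX5+MAT replicate 2, L428-PAX5+M replicate 1 or 3, or replicate 1 or 2 of the 4 groups. UCHL1, a neuronal deubiquitinase, had 9.04, 9.46 and 7.86 in L428-PAX5+MAT and 6.17, 6.47 and 6.49 in L428-PAX5+M. NEFM, a neurofilament chain, changed by 1.95 ± 0.24 and ELAVL3, a neuronal RNA-binding protein, by 1.78 ± 0.24, while ENO2, the neuronal enolase, fell by 0.81. Of 25 epithelial and mesenchymal genes, 9 were higher and 4 lower (2 lower without L428-PAX5+M replicate 3 and after quantile normalization, 1 without replicate 1 and 2 without replicate 2 of all 4 groups). SNAI2, the repressor Slug of the epithelial-mesenchymal transition, had 9.49, 10.20 and 8.43 in L428-PAX5+MAT, against 4.97, 5.04 and 5.37 in L428-PAX5+M, and KRT8, a keratin of simple epithelia, changed by 1.65 ± 0.22. VIM, vimentin, fell by 0.60, a call that was lost after quantile normalization (adjusted p = 0.068) and without replicate 1 of all 4 groups (adjusted p = 0.055). Of 18 imprinted genes 6 were higher, 3 without replicate 2 of the 4 groups, and 1 was lower (2 with the replicate block, 0 after quantile normalization, 2 without L428-PAX5+MAT replicate 1 or 3, and 0 without replicate 1 or 2 of the 4 groups). They were led by NNAT, neuronatin (3.45 ± 0.38). PEG10, derived from a retrotransposon, had 12.61, 12.63 and 12.44 in L428-PAX5+MAT and 11.67, 11.59 and 11.37 in L428-PAX5+M. Markers of T and NK cells, by contrast, passed for 0 of 23 higher and 1 lower (1 higher without L428-PAX5+MAT replicate 3 or replicate 3 of the 4 groups, and 0 lower after quantile normalization and without L428-PAX5+MAT replicate 2, L428-PAX5+M replicate 1 or replicate 1 or 2 of the 4 groups), and those of myeloid cells for 4 of 21 higher (1 without replicate 2 of the 4 groups) and 1 lower. That number lower was 2 after quantile normalization, and 0 without L428-PAX5+MAT replicate 2 or 3, any 1 L428-PAX5+M array, or any 1 number of the 4 groups.

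**Figure D3:**
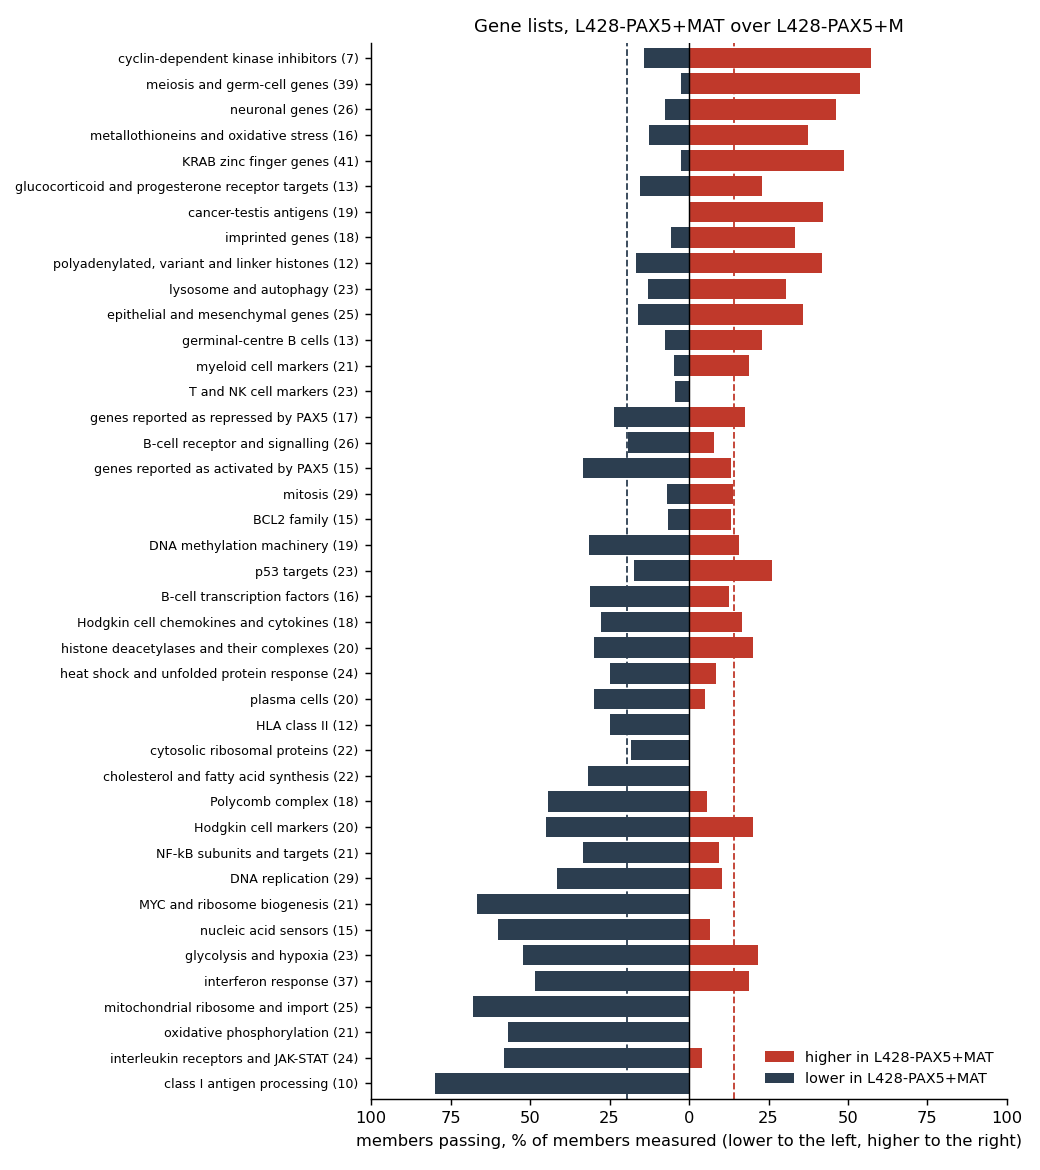
Share of measured members of each gene list that passed higher (right) or lower (left) in L428-PAX5+MAT against L428-PAX5+M, with the number measured in brackets and lists ordered by median change. The dashed lines mark the shares over all genes, 14.2% higher and 19.4% lower; germ-cell, KRAB and neuronal lists extend right of the line, and class I processing, mitochondrial and cytokine receptor lists extend left of it.

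The listed interferon response genes moved both ways, more of them lower in L428-PAX5+MAT. Of 37 measured, 18 were lower (48.6%), 7 higher (18.9%) and 12 did not pass, with a median change of -0.65. Over all genes, 19.4% were lower and 14.2% higher. After quantile normalization 16 were lower and 7 higher. IFI44L, induced by type I interferon, had 6.98, 6.54 and 8.52 in L428-PAX5+MAT and 9.50, 9.61 and 9.69 in L428-PAX5+M (-2.25 ± 0.34, limma adjusted p = 6.0e-05). OAS2, which makes the 2-5A activator of RNase L, had 6.62, 6.43 and 7.50 in L428-PAX5+MAT, against 8.85, 8.62 and 8.72 in L428-PAX5+M (-1.88 ± 0.20). SAMD9L, an antiviral factor, had 9.07, 7.96 and 9.62 in L428-PAX5+MAT and 10.52, 10.37 and 10.73 in L428-PAX5+M. In all 3 genes the groups did not overlap, which the choice of genes required, and replicate 3 was again the least reduced treated array. Groups without overlap made up 23% of all genes on the lower side and 17.7% on the higher side. MX1, the antiviral GTPase, had 7.30, 6.42 and 7.45 in L428-PAX5+MAT, against 7.83, 7.71 and 7.79 in L428-PAX5+M, a smaller change of -0.72 ± 0.21 (adjusted p = 0.012). Not all members fell. GBP2, a guanylate-binding protein, had 10.02, 9.98 and 10.10 in L428-PAX5+MAT and 6.33, 6.14 and 6.91 in L428-PAX5+M (3.57 ± 0.32). OASL changed by 1.46 ± 0.17 and IFIT5, an RNA-binding member of the IFIT family, by 0.92 ± 0.15. ISG15 (-0.05) and OAS3 (-0.01), like MX1 chosen after their values were seen, did not pass. In bulk samples, fewer cells of a type and less RNA per cell cannot be told apart.

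In the parental line, 27 of the 37 (73%) were higher in L428+MAT and 0 lower, with a median change of 1.12. Over all genes, 4.21% were higher there and 0.635% lower. MX1 had 11.04, 11.07 and 10.72 in L428+MAT and 8.46, 8.50 and 8.11 in L428+M, a change of 2.59. OAS2 had 10.55, 10.30 and 10.30 in L428+MAT and 9.08, 8.93 and 8.60 in L428+M. The change in L428-PAX5 was below that in L428 for 28 of the 37 and above it for 0 (10.6% and 5.64% of all genes), with differences of -3.39 for OAS2 (adjusted p of the difference = 1.3e-06), -3.31 for MX1 (2.7e-06) and -3.54 for IFI44L (0.00013). The members with the largest rises in L428-PAX5 did not share this: the difference was 0.99 for GBP2 (adjusted p = 0.15) and 0.56 for OASL (0.14). Over all genes, 68 passed lower in L428-PAX5 and higher in L428, and 5 the other way. The 68 include 12 of the interferon list. Also among the 68 are IDO1, the tryptophan-degrading enzyme, chosen after its values were seen (-1.31 in L428-PAX5, 1.91 in L428), and CD38, an ectoenzyme of plasma cells (-0.96 and 1.86).

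**Figure D4:**
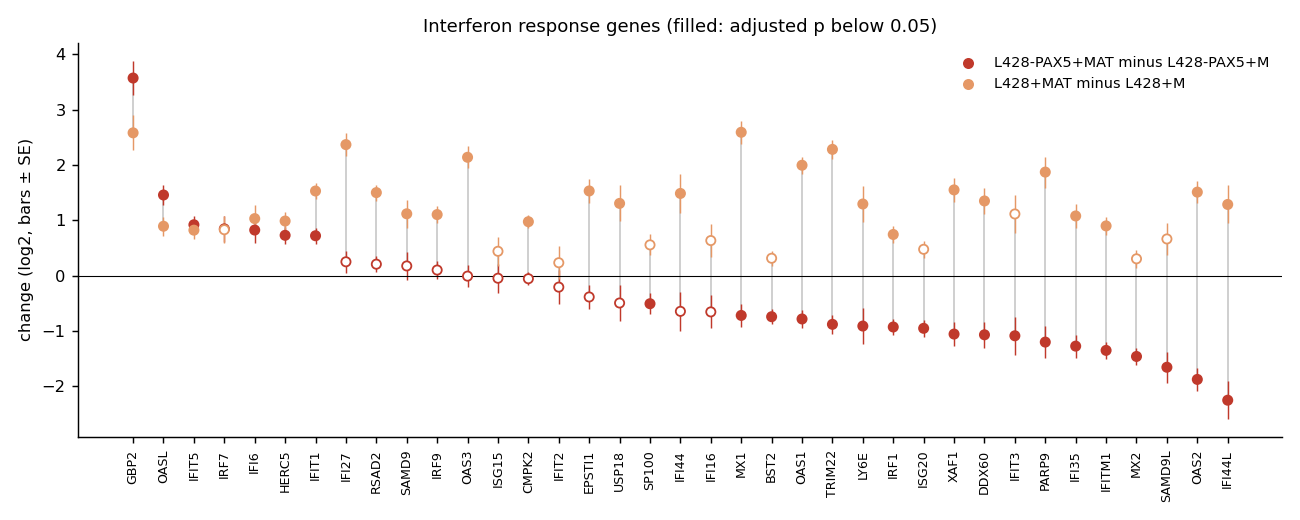
Log2 change ± SE of the 37 interferon response genes in L428-PAX5 (L428-PAX5+MAT minus L428-PAX5+M) and in L428 (L428+MAT minus L428+M), ordered by the change in L428-PAX5. In L428, 27 points pass and lie above 0; in L428-PAX5, 18 pass below 0 and 7 above, from GBP2 at 3.57 to IFI44L at -2.25.

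Genes that make and load peptides for HLA class I were counted next. Of 10 measured, 8 were lower, 0 higher and 2 did not pass, with a median change of -1.0, against -0.04 over all genes. Of all genes, 19.4% were lower and 14.2% higher. ERAP1, which trims peptides, had 8.34, 7.34 and 8.03 in L428-PAX5+MAT and 9.73, 9.37 and 9.61 in L428-PAX5+M (-1.67 ± 0.21, adjusted p = 7.1e-06). PSMB10 and PSMB8, catalytic subunits of the immunoproteasome, changed by -1.50 ± 0.29 and -1.36 ± 0.24. TAP1, a subunit of the peptide transporter, had 9.10, 8.44 and 8.72 in L428-PAX5+MAT, against 9.75, 9.79 and 9.45 in L428-PAX5+M, and TAP2, its partner, changed by -0.79 ± 0.24; both were chosen after their values were seen. B2M, the light chain of HLA class I, changed by -0.003 and did not pass. In L428, 4 of the 10 were higher and 0 lower, against 4.21% and 0.635% of all genes. The difference between the lines passed lower for 7 of 10, against 10.6% of all genes. Without replicate 2 of all 4 L428 groups, 4 members passed lower.

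The promoters of IFI44L, MX1 and TAP1 are shown because interferon-regulatory factors are known to bind repeats of GAAA. Capitals mark GAAA, any 2 bases and GAAA on either strand, so that a match on the other strand reads TTTC, any 2 bases and TTTC; source, build and orientation are as above.
IFI44L, chr1:78620198-78620497, plus strand: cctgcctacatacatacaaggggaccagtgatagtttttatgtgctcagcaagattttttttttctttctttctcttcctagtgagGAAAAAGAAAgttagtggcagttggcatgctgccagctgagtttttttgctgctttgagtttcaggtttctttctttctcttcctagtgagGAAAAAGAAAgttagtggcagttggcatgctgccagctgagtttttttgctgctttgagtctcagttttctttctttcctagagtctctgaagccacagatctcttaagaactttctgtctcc
MX1, chr21:41420308-41420607, plus strand: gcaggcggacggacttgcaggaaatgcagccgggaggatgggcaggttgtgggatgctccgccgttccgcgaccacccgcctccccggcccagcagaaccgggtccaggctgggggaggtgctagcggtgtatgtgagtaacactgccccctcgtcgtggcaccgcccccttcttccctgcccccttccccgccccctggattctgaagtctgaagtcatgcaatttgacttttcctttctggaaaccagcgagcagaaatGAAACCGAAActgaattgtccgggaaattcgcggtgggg
TAP1, chr6:32853655-32853954, minus strand: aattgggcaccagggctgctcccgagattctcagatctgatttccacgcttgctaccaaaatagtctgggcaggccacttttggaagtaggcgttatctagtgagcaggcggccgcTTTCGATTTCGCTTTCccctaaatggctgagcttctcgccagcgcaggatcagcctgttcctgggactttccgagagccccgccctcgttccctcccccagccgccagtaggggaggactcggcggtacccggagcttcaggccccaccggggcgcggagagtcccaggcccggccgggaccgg
IFI44L and TAP1 have 2 matches each, which overlap in TAP1, and MX1 has 1. The motif was found in 6 of 9 class I processing genes with a window (66.7%). It was in 3.57% of all 35116 windows of the table, a wider set than the measured genes, so the shares are of unlike sets and are a description only. For the interferon list the share is void, since 28 of 37 (75.7%) had a window. A match describes these letters only.

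Sensors of foreign nucleic acids start the interferon response. Of 15 measured, 9 were lower (60%) and 1 higher (6.67%), with a median change of -0.53, against 19.4% and 14.2% of all genes. IFIH1, the sensor MDA5 of long double-stranded RNA, had 9.56, 8.47 and 9.80 in L428-PAX5+MAT and 10.69, 10.59 and 10.68 in L428-PAX5+M. EIF2AK2, the RNA-activated kinase PKR, changed by -1.17 ± 0.16, and CGAS, the sensor of cytosolic DNA, by -1.12 ± 0.27. RIGI, the sensor of RNA ends, was the member that rose, with 9.14, 8.90 and 9.17 in L428-PAX5+MAT, against 7.57, 7.13 and 7.75 in L428-PAX5+M. RIGI rose by 1.86 in L428 too, and the difference between the lines did not pass (adjusted p = 0.57). Of all 15, 7 had a change in L428-PAX5 below that in L428 and 0 above (10.6% and 5.64% of all genes). MAVS (0.06) and TLR9 (-0.24), chosen after their values were seen, did not pass.

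Of cytokine receptors and their JAK-STAT partners, 14 of 24 were lower in L428-PAX5+MAT and 1 higher, with a median change of -0.74. These are 58.3% and 4.17%, against 19.4% and 14.2% of all genes. IL15RA, a chain of the interleukin-15 receptor, had 8.42, 7.44 and 8.10 in L428-PAX5+MAT and 10.02, 10.19 and 9.93 in L428-PAX5+M (-2.06 ± 0.23). STAT6, the factor of interleukin-4 and interleukin-13 signalling that is often active in Hodgkin cells, had 8.95, 8.69 and 8.99 in L428-PAX5+MAT, against 10.66, 10.73 and 10.32 in L428-PAX5+M. STAT5A changed by -1.66 ± 0.18. PTPN1, a phosphatase that restrains JAK kinases, rose by 0.72 ± 0.14, and was joined by another member after quantile normalization and without L428-PAX5+M replicate 1. In L428, 2 of 24 were higher and 0 lower, against 4.21% and 0.635% of all genes. The difference between the lines passed lower for 13 and higher for 1, against 10.6% and 5.64% of all genes. Of 21 NF-kB subunits and targets, 7 were lower (33.3%) and 2 higher (9.52%). The number higher was 4 after quantile normalization, 3 with the replicate block, and 1 without L428-PAX5+MAT replicate 1, L428-PAX5+M replicate 3 or any 1 number of the 4 groups. NFKB1, the p105 precursor, changed by -1.38 ± 0.13 and TNIP1, an inhibitor of the pathway, by -1.38 ± 0.20, while IER3, an early response gene, rose by 1.83 ± 0.34.

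Hodgkin cell genes were counted as markers and as chemokines and cytokines. Their counts stand against 19.4% lower and 14.2% higher of all genes, and against 4.84% passing in L428. Of 20 Hodgkin markers, 9 were lower (45%) and 4 higher (20%, or 2 members without replicate 2 of the 4 groups). In L428, 0 of these markers passed in either direction. TNFRSF8, the receptor CD30 that marks Hodgkin cells, had 8.17, 7.93 and 7.84 in L428-PAX5+MAT and 9.25, 9.35 and 9.04 in L428-PAX5+M (-1.23 ± 0.21). BATF3, a partner of AP-1 factors, changed by -1.65 ± 0.19, CD80, a costimulatory ligand of T cells, by -1.60 ± 0.35, and MSC, the repressor ABF-1 of B-cell genes, by -1.45 ± 0.24. LGALS1, galectin-1, rose by 0.88 ± 0.15. Of 18 chemokines and cytokines, 5 were lower (27.8%) and 3 higher (16.7%), which is not far from the shares of all genes. LTA, lymphotoxin alpha, had 9.90, 9.78 and 9.82 in L428-PAX5+MAT, against 12.01, 12.37 and 11.81 in L428-PAX5+M. CCL17, the chemokine TARC that draws helper T cells, had 9.12, 9.56 and 9.77 in L428-PAX5+MAT and 11.26, 11.12 and 11.38 in L428-PAX5+M. CCL20, a chemokine for CCR6, had 8.33, 9.17 and 8.52 in L428-PAX5+MAT and 4.97, 5.06 and 5.02 in L428-PAX5+M.

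The chains of the B-cell receptor stayed below the median signal. CD79A had 6.30, 6.53 and 6.39 in L428-PAX5+MAT and 6.26, 6.26 and 6.18 in L428-PAX5+M (0.17 ± 0.16, adjusted p = 0.47). CD79B (0.06 ± 0.15), MS4A1, the antigen CD20 (0.30 ± 0.24), and BLNK, the linker of the receptor (0.17 ± 0.18), did not pass either. CD22, an inhibitory coreceptor, had 6.18, 6.25 and 5.72 in L428-PAX5+MAT and 5.52, 5.55 and 5.88 in L428-PAX5+M. Its change of 0.40 ± 0.16 had an adjusted p of 0.064, and of 0.038 with the replicate block. It passed at 0.0088 without L428-PAX5+MAT replicate 3 and at 0.031 without L428-PAX5+M replicate 3, at 0.0014 without replicate 3 of the 4 groups, with array weights (3.2e-05) and among genes that met the filter on dim genes (0.0499). CD22 met that filter through the Burkitt lines, while its signals in both L428-PAX5 groups stayed below the median signal of all genes. Of all 26 genes of the receptor and its signalling, 5 were lower and 2 higher (4 higher with the replicate block, 1 without L428-PAX5+MAT replicate 1 and 5 without L428-PAX5+MAT replicate 3, and, of the 4 groups, 1 without replicate 2 and 5 without replicate 3). These shares, 19.2% lower and 7.69% higher, were not above the 19.4% and 14.2% of all genes. CD24, a B-cell surface protein, had 9.20, 9.34 and 8.64 in L428-PAX5+MAT, against 7.62, 6.69 and 6.98 in L428-PAX5+M. CD53, a tetraspanin (-1.58 ± 0.18), CD37, another tetraspanin (-1.39 ± 0.23), and LYN, a Src kinase of the receptor (-1.15 ± 0.20), fell.

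Of 16 B-cell transcription factors, 5 were lower and 2 higher (1 higher without replicate 2 of the 4 groups). These counts, and those of germinal-centre and plasma cell genes below, stand against 19.4% lower and 14.2% higher of all genes. IKZF1, the lymphoid factor Ikaros, had 9.17, 8.29 and 10.01 in L428-PAX5+MAT and 11.47, 11.53 and 11.58 in L428-PAX5+M (-2.37 ± 0.27, adjusted p = 2.9e-06). TCF4, the E protein E2-2, had 9.61, 8.82 and 10.65 in L428-PAX5+MAT, against 11.01, 10.92 and 11.26 in L428-PAX5+M. ETS1, a factor that restrains plasma cell formation, rose by 1.23 ± 0.19. IRF8, a factor of germinal-centre and myeloid cells, changed by 1.14 ± 0.28, which was lost without replicate 2 of the 4 groups (adjusted p = 0.09). BCL6, the repressor that defines germinal-centre B cells, had 9.58, 10.11 and 9.61 in L428-PAX5+MAT and 8.20, 7.79 and 7.63 in L428-PAX5+M (1.90 ± 0.16, adjusted p = 1.3e-07), and 3 of 13 germinal-centre genes were higher and 1 lower. That number lower was 2 with the replicate block and after quantile normalization, and 0 without L428-PAX5+MAT replicate 2, L428-PAX5+M replicate 3 or replicate 1 or 2 of the 4 groups. BCL6 in L428 had 10.00, 10.28 and 10.05 in L428+MAT and 9.82, 10.04 and 9.73 in L428+M, so that L428-PAX5+M was the low group. Of 20 plasma cell genes 6 were lower and 1 higher, but 3 and 3 after quantile normalization. XBP1, the driver of secretion, changed by -1.33 ± 0.18. PRDM1, the plasma cell regulator Blimp-1, changed by 0.18 ± 0.16 and did not pass (adjusted p = 0.46), but passed after quantile normalization with 0.43 (adjusted p = 0.039).

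Genes reported in the literature as activated by PAX5 were 5 lower and 2 higher of 15, and those reported as repressed by it 4 lower and 3 higher of 17, against 19.4% lower and 14.2% higher of all genes. These counts are 33.3% and 13.3% of the activated list and 23.5% and 17.6% of the repressed list. Without replicate 2 of the 4 groups the activated list had 2 lower and 1 higher, and the repressed list 2 lower and 1 higher. The repressed list also had 2 lower without L428-PAX5+MAT replicate 2, without L428-PAX5+M replicate 1 and without replicate 1 of the 4 groups. Among activated genes, NEDD9, an adhesion scaffold, had 8.19, 8.89 and 7.65 in L428-PAX5+MAT, against 6.28, 6.02 and 5.85 in L428-PAX5+M. RASGRP3, an exchange factor for Ras behind the receptor, changed by -1.55 ± 0.27. Among repressed genes, EMB, embigin, changed by -2.20 ± 0.27. Of 12 HLA class II genes and their regulators, 0 were higher and 3 lower, or 5 lower with the replicate block and 1 without replicate 2 of the 4 groups. RFX5, which binds class II promoters, changed by -1.12 ± 0.20.

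Lists of growth and energy genes are set against 19.4% lower and 14.2% higher of all genes. Of 25 genes of the mitochondrial ribosome and import, 17 were lower and 0 higher (15 and 0 after quantile normalization), with a median of -0.69. MRPS18B, a ribosomal subunit, had 8.98, 8.75 and 8.86 in L428-PAX5+MAT and 10.22, 10.21 and 10.12 in L428-PAX5+M. TOMM22, a receptor of protein import, changed by -1.37 ± 0.23. Of 21 genes of oxidative phosphorylation, 12 were lower and 0 higher; NDUFA9 of complex I changed by -1.57 ± 0.21 and CYC1 of complex III by -1.38 ± 0.24. Of 21 genes of MYC and ribosome biogenesis, 14 were lower and 0 higher, with 1 higher under the replicate block and 2 after quantile normalization or without L428-PAX5+MAT replicate 3. Without replicate 1 of the 4 groups 9 were lower, and without replicate 2, 8. MYC had 10.58, 10.23 and 10.50 in L428-PAX5+MAT, against 11.40, 11.36 and 11.13 in L428-PAX5+M (-0.86 ± 0.15). RRS1, a factor of ribosome assembly, changed by -1.49 ± 0.23. Of 22 genes of cholesterol and fatty acid synthesis, 7 were lower (11 with the replicate block and without replicate 3 of the 4 groups) and 0 higher (2 with the block, 3 after quantile normalization, 2 without L428-PAX5+MAT replicate 3 or replicate 3 of the 4 groups and 1 without L428-PAX5+M replicate 1). SCD, the stearoyl-CoA desaturase, changed by -1.32 ± 0.13. Of 22 cytosolic ribosomal proteins 4 were lower and 0 higher, but 9 were lower with the replicate block, 1 after quantile normalization, 2 without L428-PAX5+MAT replicate 1 or 2 or L428-PAX5+M replicate 1 or 3, and 1 without replicate 1 or 2 of the 4 groups. Their share of 18.2% lower was below that of all genes. These lists hold bright genes, the class whose medians moved with the scaling. In L428, 0 members of the mitochondrial, oxidative phosphorylation and MYC lists passed in either direction, with medians of -0.21, -0.27 and near 0. The difference between the lines passed lower for 5 of 25, 1 of 21 and 5 of 21 of them, against 10.6% of all genes.

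Glycolysis and hypoxia genes split, with 12 lower and 5 higher of 23. This list and those after it are set against 19.4% lower and 14.2% higher of all genes. ALDOC, an aldolase, had 10.28, 10.69 and 9.68 in L428-PAX5+MAT and 6.71, 7.35 and 7.11 in L428-PAX5+M (3.16 ± 0.21), and NDRG1, a stress-response gene induced by hypoxia, changed by 2.71 ± 0.19. PFKL, a phosphofructokinase, changed by -1.08 ± 0.23, and VEGFA, a growth factor of blood vessels, by -0.88 ± 0.14. Of 23 lysosome and autophagy genes, 7 were higher (4 without replicate 2 of the 4 groups) and 3 lower (1 without L428-PAX5+M replicate 1 or without replicate 2 of the 4 groups). NPC1, the lysosomal cholesterol transporter, had 11.87, 11.86 and 11.74 in L428-PAX5+MAT, against 10.31, 10.06 and 10.27 in L428-PAX5+M. Of 16 metallothioneins and genes of oxidative stress, 6 were higher (3 without replicate 1 and 2 without replicate 2 of the 4 groups) and 2 lower (1 without L428-PAX5+MAT replicate 2, L428-PAX5+M replicate 1 or replicate 1 or 2 of the 4 groups). SLC7A11, the cystine importer, changed by -1.92 ± 0.29. Of 24 genes of heat shock and the unfolded protein response, 6 were lower and 2 higher, but 3 and 5 after quantile normalization, where the list's median was -0.01. The number higher became 5 without L428-PAX5+M replicate 1, and 1 without L428-PAX5+M replicate 2 or replicate 2 of the 4 groups.

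In the cell cycle, DNA replication genes and mitotic genes were counted separately. All counts here stand against 19.4% lower and 14.2% higher of all genes. For mitotic genes (6.9% lower, 13.8% higher) and the BCL2 family (6.67% lower, 13.3% higher) neither share was above these. Of 29 replication genes, 12 were lower and 3 higher, 1 higher without L428-PAX5+M replicate 3 or without replicates 1 or 2 of the 4 groups. TYMS, thymidylate synthase, had 9.55, 9.17 and 9.67 in L428-PAX5+MAT and 11.56, 11.16 and 10.89 in L428-PAX5+M (-1.74 ± 0.18). MCM5, a subunit of the replicative helicase, changed by -1.05 ± 0.17. Of 29 mitotic genes, 4 were higher and 2 lower (4 lower with the replicate block). The number higher was 2 after array medians were subtracted, and also without L428-PAX5+MAT replicate 3, L428-PAX5+M replicate 2 or 3, or replicate 3 of the 4 groups. CENPE, a kinetochore motor, rose by 1.34 ± 0.24 and CCNA2, the cyclin of S phase and mitosis, fell by 0.82 ± 0.12. Of 7 inhibitors of cyclin-dependent kinases, 4 were higher and 1 lower (2 lower with the replicate block, and 0 without L428-PAX5+MAT replicate 2, L428-PAX5+M replicate 1 or replicate 2 of the 4 groups). CDKN2B, the inhibitor p15, a known target of promoter methylation, had 8.64, 8.97 and 8.58 in L428-PAX5+MAT, against 7.27, 7.34 and 6.82 in L428-PAX5+M (1.59 ± 0.24). CDKN1A, the inhibitor p21, had 8.82, 9.14 and 8.42 in L428-PAX5+MAT and 7.93, 8.20 and 7.74 in L428-PAX5+M. Its change of 0.84 ± 0.25 passed (adjusted p = 0.013) but not without L428-PAX5+MAT replicate 2 (0.08) or L428-PAX5+M replicate 3 (0.057), nor without replicate 1 (0.11) or 2 (0.077) of the 4 groups. Of 15 members of the BCL2 family, 2 were higher and 1 lower. The number lower was 4 with the replicate block, 2 without L428-PAX5+MAT replicate 1 or L428-PAX5+M replicate 3, 3 without L428-PAX5+MAT replicate 3 and 4 without replicate 3 of the 4 groups, and the number higher was 1 without replicate 1 or 2 of the 4 groups. BCL2L11, the death-promoting BIM, rose by 0.93 ± 0.16, and BCL2L1, the survival factor BCL-xL, fell by 1.44 ± 0.25. Of 23 targets of p53, 6 were higher and 4 lower (8 lower with the replicate block, and 2 without replicate 2 of the 4 groups), led by TIGAR, a regulator of glycolysis (1.03 ± 0.19), and FAS, a death receptor (-1.58 ± 0.39).

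The targets of the drugs themselves are listed last, with list counts set against 19.4% lower and 14.2% higher of all genes. DNMT1, the maintenance methyltransferase, had 11.16, 11.06 and 10.92 in L428-PAX5+MAT and 11.37, 11.32 and 11.19 in L428-PAX5+M; its change of -0.24 ± 0.12 did not pass (adjusted p = 0.14) and was 0 after quantile normalization. DNMT3A changed by 0.002 ± 0.14 and did not pass. DNMT3B, a de novo methyltransferase, rose by 0.94 ± 0.21 (adjusted p = 0.0016). HDAC1 (-0.28 ± 0.16) and HDAC2 (-0.20 ± 0.11), class I deacetylases, did not pass. HDAC1 passed without replicate 3 of the 4 groups (-0.48, adjusted p = 0.045). HDAC2 passed with array weights (-0.25, adjusted p = 0.0093) and turned to 0.05 after quantile normalization. Of 20 deacetylases and partners, 6 were lower and 4 higher, with a median of -0.17 that turned to 0.06 after quantile normalization. The number higher ranged from 1 to 7 over the alternatives, being 2 without L428-PAX5+MAT replicate 1 and 1 without L428-PAX5+M replicate 2, and, of the 4 groups, 2 without replicate 1 and 1 without replicate 2. MTA2, a subunit of the NuRD complex, had 10.57, 10.16 and 10.58 in L428-PAX5+MAT, against 11.87, 11.66 and 11.63 in L428-PAX5+M. Of 19 genes of the methylation machinery, 6 were lower and 3 higher (2 and 1 without replicate 2 of the 4 groups). ZBTB38, which binds methylated DNA, changed by -1.49 ± 0.24. Of 18 Polycomb genes, 8 were lower and 1 higher (3 higher with the replicate block and after quantile normalization, 2 without L428-PAX5+M replicate 3). The number lower dropped to 5 without L428-PAX5+M replicate 1, and to 4 without replicate 2 of the 4 groups. PHF19, a partner of the methylating complex, changed by -1.51 ± 0.25. Of 12 polyadenylated, variant and linker histones, 5 were higher and 2 lower (1 lower after quantile normalization and without any 1 array of either group). The number higher was 3 without L428-PAX5+MAT replicate 2 or replicate 2 of the 4 groups. H2BC21, a histone H2B gene with close copies, had 11.24, 12.34 and 11.17 in L428-PAX5+MAT, against 9.43, 9.65 and 9.42 in L428-PAX5+M. Of 13 targets of the glucocorticoid and progesterone receptors, which mifepristone blocks, 3 were higher (5 after quantile normalization or without L428-PAX5+MAT replicate 3 or replicate 3 of the 4 groups) and 2 lower. SGK1, a kinase induced by glucocorticoids, rose by 1.52 ± 0.21.

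Over all genes, more passed in L428-PAX5 than in the parental line. In L428, 892 genes (4.84%) passed, 775 higher and 117 lower, and 1592 with the replicate block. The number lower in L428 was 61 without L428+MAT replicate 2, 45 without L428+MAT replicate 3, 43 without L428+M replicate 1 and 59 without L428+M replicate 2. The median absolute change was 0.29 in L428-PAX5 and 0.16 in L428. The test of the difference between the 2 drug effects, which compares the sizes directly, passed for 2990 genes (16.2%), 1039 above and 1951 below, and for 4730 with the replicate block. After quantile normalization it was 1409 above and 1483 below. Without replicate 1 of all 4 groups it was 438 above and 777 below, and without replicate 2, 359 above and 749 below. Of the 2622 genes higher in L428-PAX5, 421 (16.1%) were higher in L428 too, which is 54.3% of the 775 there. Of the 3582 lower genes, 74 (2.07%) were lower in L428, which is 63.2% of the 117 there. The genes at least 2-fold higher in L428-PAX5 had a median change of 1.38 there and 0.36 in L428, and those at least 2-fold lower had -1.27 in L428-PAX5 and -0.15 in L428. Since these genes were chosen on the L428-PAX5 arrays, the smaller values in L428 are a description. Across all 18417 genes, which are not independent replicates, the changes in the lines correlated with r = 0.41.

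**Figure D5:**
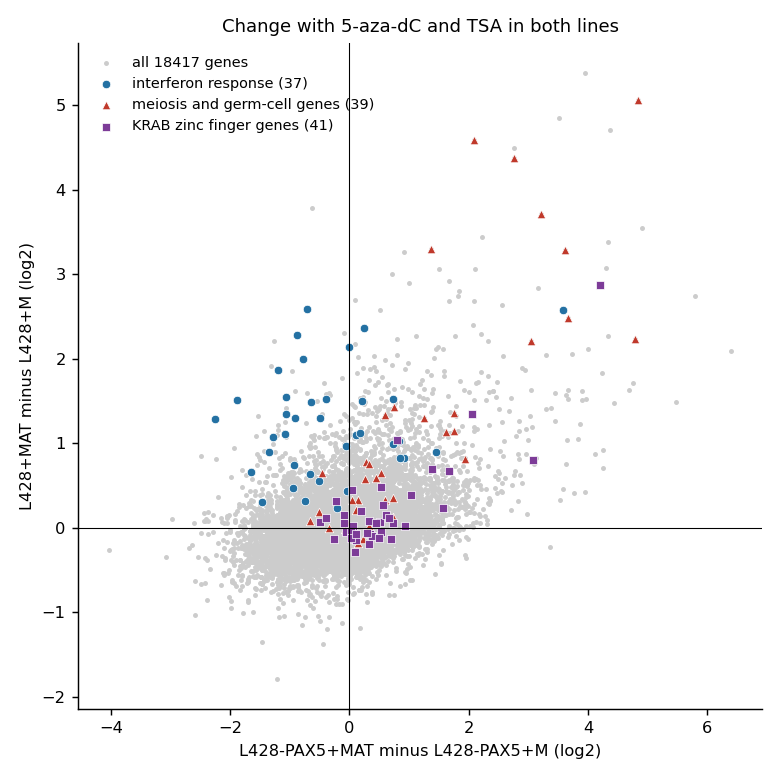
Log2 change of each of 18417 genes in L428-PAX5 (L428-PAX5+MAT minus L428-PAX5+M, x axis) and in L428 (L428+MAT minus L428+M, y axis), with 3 gene lists coloured. Germ-cell genes reach the upper right in both lines, most interferon response genes lie above 0 on the y axis and on either side of 0 on the x axis, and KRAB zinc finger genes spread along the x axis.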

How the data were processed

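RNA of 18 samples in 6 groups of 3 was measured on Affymetrix arrays. The deposited log2 values are RMA values, and RMA and Partek are named in the submitters' processing notes, without versions. Other settings are not given in the sources used here. They were used as deposited. Of 33297 probe sets, 19460 carry a single gene symbol, and the brightest was kept for each of 769 genes with several, which left 18417 genes. No 2 arrays were identical. The number of arrays limits the precision.

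limma 3.58.1 in R 4.3.3 fitted 1 mean per group over all 18 arrays (lmFit, eBayes). P-values are two-sided and adjusted by Benjamini-Hochberg over 18417 genes, with a threshold of 0.05. Tables and figures used Python 3.11.15, pandas 2.3.3, numpy 2.4.6 and matplotlib 3.10.9. The fit was tested on simulated data whose noise was independent between arrays and equally wide in all groups. Such data cannot show how shared deviations or the wider spread of the treated arrays affect the fit.

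Genes named are PAX5, the 12 largest rises and 12 largest falls that passed with no overlap between groups and a higher group mean above 7.18, up to 3 of each direction per list by the same criteria, 6 differences between the lines of each sign, and fixed members of interest. Others were chosen after their values were seen: BRDT, MAEL, TDRD12, DAZL, SYCP1, SYCP2, SYCP3, STAG3, SPO11, LDHC, DMC1, MAGEA4, PRAME, MAGEC2, MX1, ISG15, OAS3, TAP1, TAP2, B2M, MAVS, TLR9 and IDO1. The members and the 41 lists were chosen with earlier results of these data known.

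Arrays of the same replicate number deviated together from their group means in L428-PAX5+MAT and L428-PAX5+M (r = 0.41, 0.31 and 0.42). L428+MAT and L428+M did so too (0.65, 0.49 and 0.55), as did L428-PAX5+M with L428+MAT (0.55, 0.50 and 0.52) and with L428+M (0.52, 0.48 and 0.57). Replicate 3 of L428-PAX5+MAT also did so with replicate 3 of the untreated Raji (0.39) and Namalwa (0.44). For replicates 1 and 2 the values were 0.17 and 0.20 with Raji, where another number reached 0.19 and 0.23. With Namalwa they were 0.28 and 0.10, where another number reached 0.18 and 0.27. The labels do not state what a number shares, and this was not tested. The main fit and its p-values therefore left the number out. Pairs by number were used for description and in the replicate block. Alternatives were another scaling, array weights, a trend, another choice of probe set, a filter on dim genes, the spread from the groups compared, the replicate block, limma's treat test, and leaving out arrays. The filter on dim genes kept those with any of the 6 group means above the median signal. Leaving out 1 number from all 4 L428 groups was added after the data were seen.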

Additional observations from a re-analysis of the deposited data

Results flagged for a closer look

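The change with 5-aza-dC and TSA differed between the L428-PAX5 and the L428 line in the 12 genes below, by limma's test of the difference itself (log2 change in L428-PAX5 minus that in L428). They are the 6 largest differences of each sign under the rule for named genes, so their sizes are a description of the extremes. UTS2B changed by 6.40 in L428-PAX5 and 2.09 in L428, a difference of 4.31 (adjusted p = 1.1e-06). GPR50 changed by 5.48 in L428-PAX5 and 1.49 in L428, a difference of 3.99 (adjusted p = 1.1e-06). REXO1L1P, a pseudogene with close copies, changed by 3.36 in L428-PAX5 and -0.22 in L428, a difference of 3.58 (adjusted p = 0.0015). Its signals were 10.77, 11.94 and 9.14 in L428-PAX5+MAT, 7.51, 7.33 and 6.93 in L428-PAX5+M, 7.57, 7.75 and 7.34 in L428+MAT and 7.76, 8.48 and 7.09 in L428+M. SNAI2 changed by 4.24 in L428-PAX5 and 0.71 in L428, a difference of 3.53 (adjusted p = 3.9e-05). CRISPLD2, a secreted protein, changed by 3.95 in L428-PAX5 and 0.43 in L428, a difference of 3.52 (adjusted p = 5.7e-05). Its signals were 9.45, 10.44 and 8.46 in L428-PAX5+MAT, 5.58, 5.37 and 5.56 in L428-PAX5+M, 5.90, 5.84 and 5.39 in L428+MAT and 5.29, 5.52 and 5.03 in L428+M. ZNF280A, a zinc finger gene, changed by 3.77 in L428-PAX5 and 0.41 in L428, a difference of 3.36 (adjusted p = 1.1e-06). Its signals were 8.93, 9.39 and 8.76 in L428-PAX5+MAT, 5.17, 5.07 and 5.53 in L428-PAX5+M, 5.48, 5.56 and 6.02 in L428+MAT and 5.21, 5.00 and 5.62 in L428+M. In all 6 genes with a positive difference the L428-PAX5+MAT arrays were the highest of the 4 groups. CYP1B1, a cytochrome P450 induced by the aryl hydrocarbon receptor, changed by -0.62 in L428-PAX5 and 3.79 in L428, a difference of -4.41 (adjusted p = 3.1e-05). Its signals were 9.24, 7.47 and 9.43 in L428-PAX5+MAT, 9.70, 9.09 and 9.21 in L428-PAX5+M, 10.89, 10.61 and 10.20 in L428+MAT and 6.93, 6.69 and 6.71 in L428+M. The change in L428-PAX5 alone did not pass (adjusted p = 0.21), and L428+M was the low group. IL31 changed by -4.02 in L428-PAX5 and -0.27 in L428, a difference of -3.76 (adjusted p = 2.3e-05). IFI44L changed by -2.25 in L428-PAX5 and 1.29 in L428, a difference of -3.54 (adjusted p = 0.00013). AVPR1A, a vasopressin receptor, changed by -1.26 in L428-PAX5 and 2.21 in L428, a difference of -3.47 (adjusted p = 1.4e-05). Its signals were 9.89, 8.98 and 10.03 in L428-PAX5+MAT, 11.11, 10.93 and 10.64 in L428-PAX5+M, 10.85, 10.26 and 10.13 in L428+MAT and 8.69, 7.92 and 7.99 in L428+M. OAS2 changed by -1.88 in L428-PAX5 and 1.51 in L428, a difference of -3.39 (adjusted p = 1.3e-06). APOL6, an apolipoprotein L, changed by -2.49 in L428-PAX5 and 0.85 in L428, a difference of -3.34 (adjusted p = 0.00013). Its signals were 6.72, 5.79 and 7.86 in L428-PAX5+MAT, 9.19, 9.20 and 9.46 in L428-PAX5+M, 8.98, 8.85 and 9.35 in L428+MAT and 8.03, 8.0 and 8.59 in L428+M.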

How the results depend on the processing

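The rule for named genes, fixed members included, picked 188 genes that passed, not all of which are named above. Genes chosen after their values were seen were not among them. With arrays left out, 1553 of 1692 values kept their direction and call, and 139 kept the direction but no longer passed, over 38 genes. Most of the 188 were picked for groups without overlap on these same arrays, so part of this stability was built in. Under the other alternatives 1656 of 1692 kept both, and 36 no longer passed, over 20 genes. Array weights gave 4392 genes higher in L428-PAX5+MAT, 1569 higher and 982 lower in L428+MAT, and differences between the lines of 2682 above and 3283 below. They put a weight of 15.24 on L428-PAX5+MAT replicate 1. Testing against a 2-fold change with limma's treat left 224 genes higher and 118 lower in L428-PAX5+MAT. The replicate block gave 3267 higher and 4472 lower in L428-PAX5+MAT, 436 lower in L428+MAT, and differences of 1717 above and 3013 below. Besides these and the values beside the results, the block moved no other call of a gene picked by that rule. With the spread from the groups compared alone 38 were lower in L428+MAT, and with the block added 1409 were higher and 676 lower in L428+MAT and 1608 differences lay above 0. With arrays left out, L428-PAX5+MAT was higher for 1582 to 2778 genes and lower for 2248 to 3773, at least 2-fold higher for 695 to 1038 and lower for 834 to 1537. L428+MAT was higher for 354 to 694 and lower for 19 to 167, and differences numbered 359 to 1510 above and 749 to 2446 below. Of genes that did not pass, quantile normalization turned CD79B to -0.03, DNMT1 to 0.00, HDAC2 to 0.05 and DNMT3A to -0.05. DNMT3A was -0.01 with array medians subtracted, -0.13 with array weights, and -0.13 to 0.09 with arrays left out (among them -0.04, -0.00 and -0.08), and PRDM1 was -0.00 to 0.32. Some genes that had not passed did so under an alternative: PRDM1 after quantile normalization (0.43), HDAC1 without replicate 3 (-0.48), HDAC2 with array weights (-0.25), and CD22 as given beside it. What moved these calls was not tested. Dim genes, near the background of the arrays, limit what can be said of the germ-cell and B-cell lists.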
